A study of Homo sapiens with 48 samples.

Results

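The heterogeneous nuclear ribonucleoproteins (hnRNPs) are abundant proteins that coat newly made RNA in the nucleus. The 10 hnRNP genes described here, HNRNPA1, HNRNPA2B1, HNRNPA3, HNRNPD, HNRNPH1, HNRNPH3, HNRNPK, HNRNPL, HNRNPM and HNRNPU, were taken by gene name from a table of 57820 genes. Each name had 1 row, and all 10 were among the 19129 genes with enough counts to be tested.

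The study concerned how the ATPase of UPF1 is regulated, and with what consequence for nonsense-mediated mRNA decay (NMD). RNA was sequenced from 48 libraries of Flp-In 293 T-REx cells, a derivative of the human embryonic kidney line HEK293 built so that a construct integrates at a defined recombination site. The libraries came from 8 stable lines, each treated for 72 h at 40 nM with a control siRNA that targets no gene (siNT) or with one directed at UPF1 (siUPF1), with 3 libraries in each of the 16 groups. CLIP cells carried only the tag, without UPF1, and WT cells the tag fused to wild-type UPF1. The lines K498A, DE636AA, R843C, A546H, GA-KH and E797R carried CLIP-UPF1 with the change in their name. Of these, K498A and DE636AA alter the helicase motifs that bind and hydrolyse ATP. The labels describe the cells of each line as stably expressing their construct, and nothing states an inducer or more than 1 line per construct, so a construct and its line cannot be told apart. The libraries of a group are described as biological replicates, and nothing says more of how the cultures differed, so the p-values measure the spread between these libraries.

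UPF1 is the RNA helicase at the centre of NMD, the pathway that degrades RNAs whose stop codon lies too early, along with a share of normal mRNAs. hnRNPs bind nascent RNA through RNA-recognition or KH domains, repress or promote splice sites, and accompany mRNA to the cytoplasm. Several, HNRNPL and HNRNPA2B1 among them, limit their own level by directing splicing of their own RNA towards a form that NMD degrades. The counts here are sums over all transcripts of a gene, so an NMD-sensitive form and the coding form cannot be told apart in them. In the reference annotation (GENCODE v29, GRCh38), 8 of the 10 genes have at least 1 transcript of the nonsense-mediated decay type. HNRNPU has 9 and HNRNPH1 has 4, while HNRNPA3 and HNRNPH3 have none.

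The 48 libraries held between 21.3 M and 47.1 M expected counts each, with a median of 32.35 M. Markers usually found in HEK293 cells were present in every group, with VIM at 463 to 657 CPM, the count scaled to a common library size, as group means, NEFL at 194 to 373, KRT8 at 143 to 189 and KRT18 at 79.8 to 109. PAX2 (2.97 to 7.62 CPM) and NEFM (1.15 to 2.32 CPM), also on that list, were low, and PAX2 fell with siUPF1 in all 8 lines, by 0.58 (GA-KH) to 1.09 (CLIP) on the log2 scale. Of 12 markers of other cell types, 8 were too low to be tested, PTPRC, HBB, PECAM1 and ALB among them. The other 4 were EPCAM (67.9 to 97.8 CPM as group means), COL3A1 (3.02 to 9.8), COL1A1 (1.47 to 3.23) and GFAP (0.182 to 0.681). UPF1 fell in CLIP from 105, 106 and 113 CPM with siNT to 18.2, 36.8 and 17.7 CPM with siUPF1. In the other 7 lines, which carry a UPF1 transgene, UPF1 was at group means of 3960 to 7220 CPM. With siUPF1 it was highest in DE636AA (7220 CPM, against 5610 with siNT) and K498A (5960, against 5420). E797R (5060), WT (4840), A546H (4350), GA-KH (4100) and R843C (3960) followed. The counts do not separate transgene from endogenous UPF1, so knockdown of the endogenous gene cannot be seen in these lines. The second CLIP siUPF1 library (replicate 2) was unlike the other 2 of its group. It kept the most UPF1 of its group and had 0.63% of its counts from mitochondrially encoded genes, against 2.32% and 2.13% in replicates 1 and 3. All lines were fitted together with 1 shared estimate of the spread, so this library also widened the errors of the other lines. Results are therefore given with it and, marked as such, without it, an alternative chosen after the data were seen. WT siUPF1 replicate 3 also stood apart from its group, though less strongly. It was the library with the fewest counts (21.3 M) and had UPF1 at 5860 CPM, against 4330 and 4350 CPM in replicates 1 and 2. WT siUPF1 replicate 3 enters all 7 differences from WT.

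The hnRNP transcripts were abundant. Together the 10 genes took between 0.863% and 1.26% of a library's counts. Per kilobase of the longest coding transcript in the GRCh38 annotation, the order of levels in CLIP siNT was HNRNPA2B1 (685 CPM per kb), HNRNPA1 (633), HNRNPU (391), HNRNPH1 (242), HNRNPM (239), HNRNPK (236), HNRNPD (226), HNRNPA3 (179), HNRNPL (151) and HNRNPH3 (125). Neighbours in the order among HNRNPH1, HNRNPM, HNRNPK and HNRNPD lay within the spread between libraries. The summed share fell with siUPF1 in all 8 lines. It went from 1.23% ± 0.0252 to 0.975% ± 0.0799 (SD, n = 3) in CLIP and from 1.09% ± 0.0751 to 0.881% ± 0.0303 in DE636AA. In WT it went from 1.16% ± 0.0252 to 1.07% ± 0.0265.

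**Figure D1:**
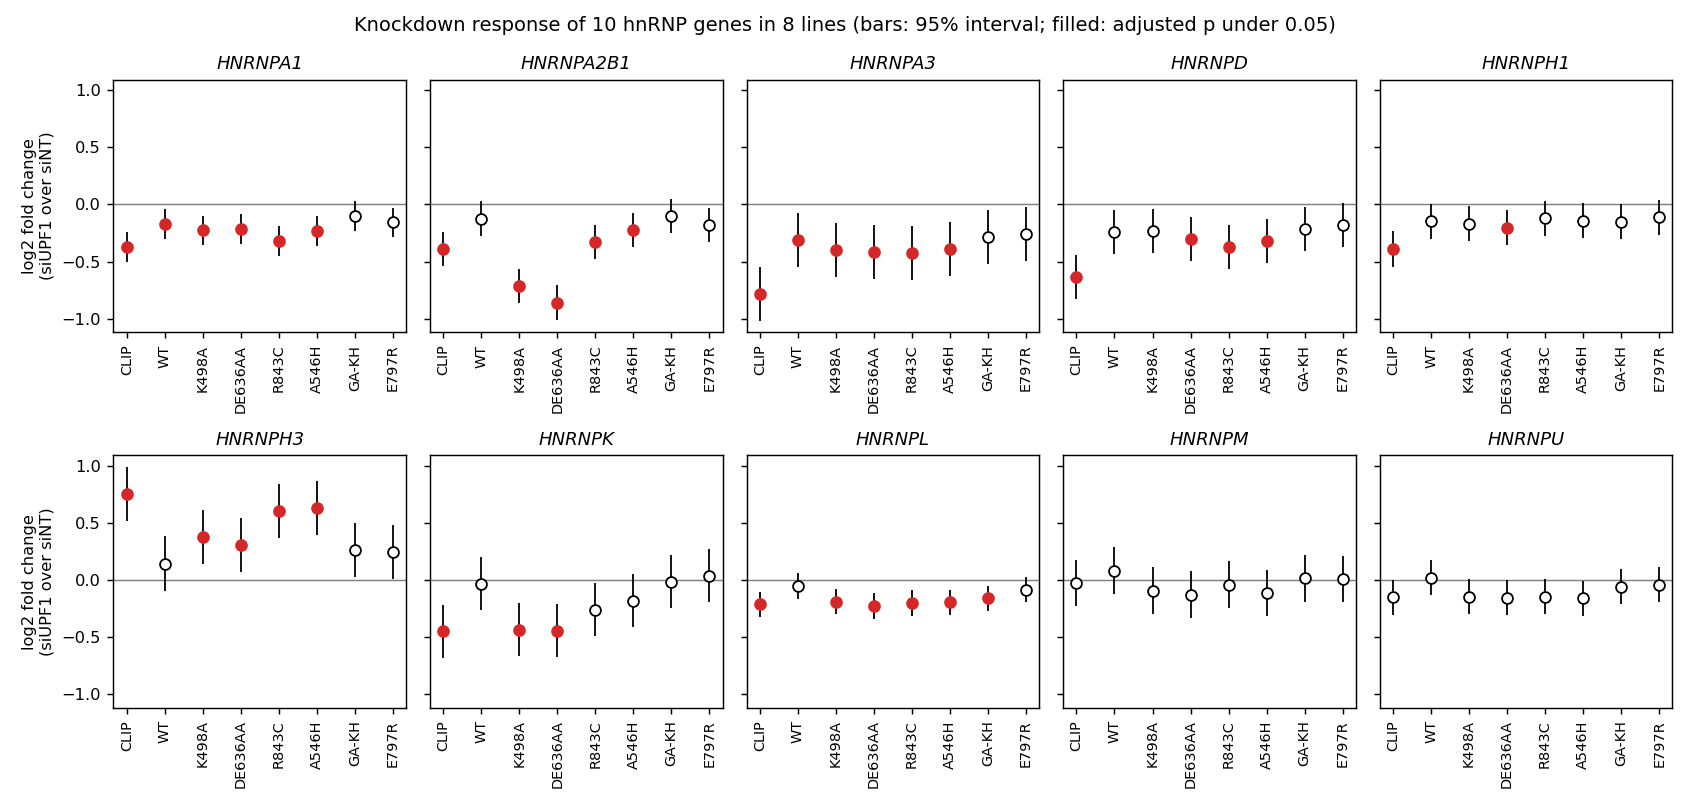
Knockdown response of each hnRNP gene in the 8 lines, as the log2 fold change of siUPF1 over siNT (y axis) with its 95% interval. Filled points have an adjusted p under 0.05. HNRNPH3 lies above 0 in every line, HNRNPA1, HNRNPA2B1, HNRNPA3, HNRNPD, HNRNPH1 and HNRNPL lie below it in every line, and HNRNPA2B1 is lowest in K498A and DE636AA.

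The first question was what knockdown of UPF1 did to the family in each line. Most changes were falls of modest size, and HNRNPH3 was the 1 gene that rose. A gene was called at an adjusted p under 0.05, by edgeR's quasi-likelihood test with Benjamini-Hochberg adjustment over all 19129 genes of a comparison. In CLIP 7 hnRNP genes fell and 1 rose, where 47.4% of all tested genes were called. In DE636AA 7 fell and 1 rose (34.3% of all genes), and 5 fell and 1 rose in K498A (32.7%), R843C (32.5%) and A546H (32.2%). In WT 2 fell (27.2%), in GA-KH 1 fell (28.3%) and in E797R none was called (29.5%). At an unadjusted p under 0.05 the count in E797R was 3 of 10, below the 38.7% of all genes at that level. DESeq2 called 2 there, as did a fit with a replicate block across lines, without a share over all genes counted. Over the 80 pairs of gene and line, 37 were called, which is 46.2% against 33% of such pairs over all genes. Of these 32 were lower and 5, all HNRNPH3, were higher. In 51 of the 80 pairs every siUPF1 library lay below every siNT library, and in 7 above. The share of all genes with groups so far apart was not counted. The median log2 fold change of the 10 genes was -0.38 in CLIP, -0.22 in DE636AA and -0.09 in WT, beside -0.01, -0.02 and 0.01 over all tested genes.

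Without CLIP siUPF1 replicate 2 the shared spread was smaller and 56 of the 80 pairs were called, 49 lower and 7 higher. The counts were then 9 in CLIP and A546H, 8 in K498A, DE636AA and R843C, 5 in GA-KH and E797R and 4 in WT. The share of all genes called also moved, to 40.5% in CLIP and to between 32.7% (WT) and 40.1% (DE636AA) in the other lines. Both calls in WT made with all 48 libraries were lost when single libraries of that line were left out, as given for each gene. In these bulk samples, fewer cells with a transcript and less of it per cell cannot be told apart.

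HNRNPA1 (ENSG00000135486.13), HNRNPA2B1 (ENSG00000122566.16) and HNRNPA3 (ENSG00000170144.14) encode the A/B proteins that form the core hnRNP particle and repress splice sites by binding UAG-type motifs. Of the 3, HNRNPA2B1 differed most between lines. Its level with siNT was 2490, 2490 and 2540 CPM in CLIP, and 2050, 1650 and 2050 CPM with siUPF1, so that every siUPF1 library lay below every siNT library. In WT the libraries were at 2340, 2510 and 2320 CPM with siNT and at 2160, 2270 and 2160 CPM with siUPF1. These groups did not overlap either, but lay close together. In K498A the level went from 2250, 2380 and 2280 CPM to 1330, 1470 and 1410 CPM. In DE636AA it went from 2440, 2060 and 2240 CPM to 1350, 1200 and 1160 CPM. The siUPF1 libraries of K498A and DE636AA were the 6 lowest of all 48 for this gene.

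As a fold change, HNRNPA2B1 fell in DE636AA by 0.86 on the log2 scale (SE 0.08, adjusted p = 3.02e-11), which left 55.1% of the siNT level. In K498A it fell by 0.71 (SE 0.08, adjusted p = 2.08e-09), which left 61%. In CLIP it fell by 0.39 (SE 0.08, adjusted p = 5.76e-05), or by 0.30 without siUPF1 replicate 2. It also fell in R843C by 0.33 and in A546H by 0.22, and the call in A546H was lost when A546H siNT replicate 1, siNT replicate 2 or siUPF1 replicate 3 was left out (lowest size -0.19, adjusted p = 0.0894). In WT, GA-KH and E797R the values were -0.12, -0.10 and -0.18 with adjusted p of 0.249, 0.353 and 0.0705. The fall in E797R was called without CLIP siUPF1 replicate 2 (-0.22, adjusted p = 0.00836).

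**Figure D2:**
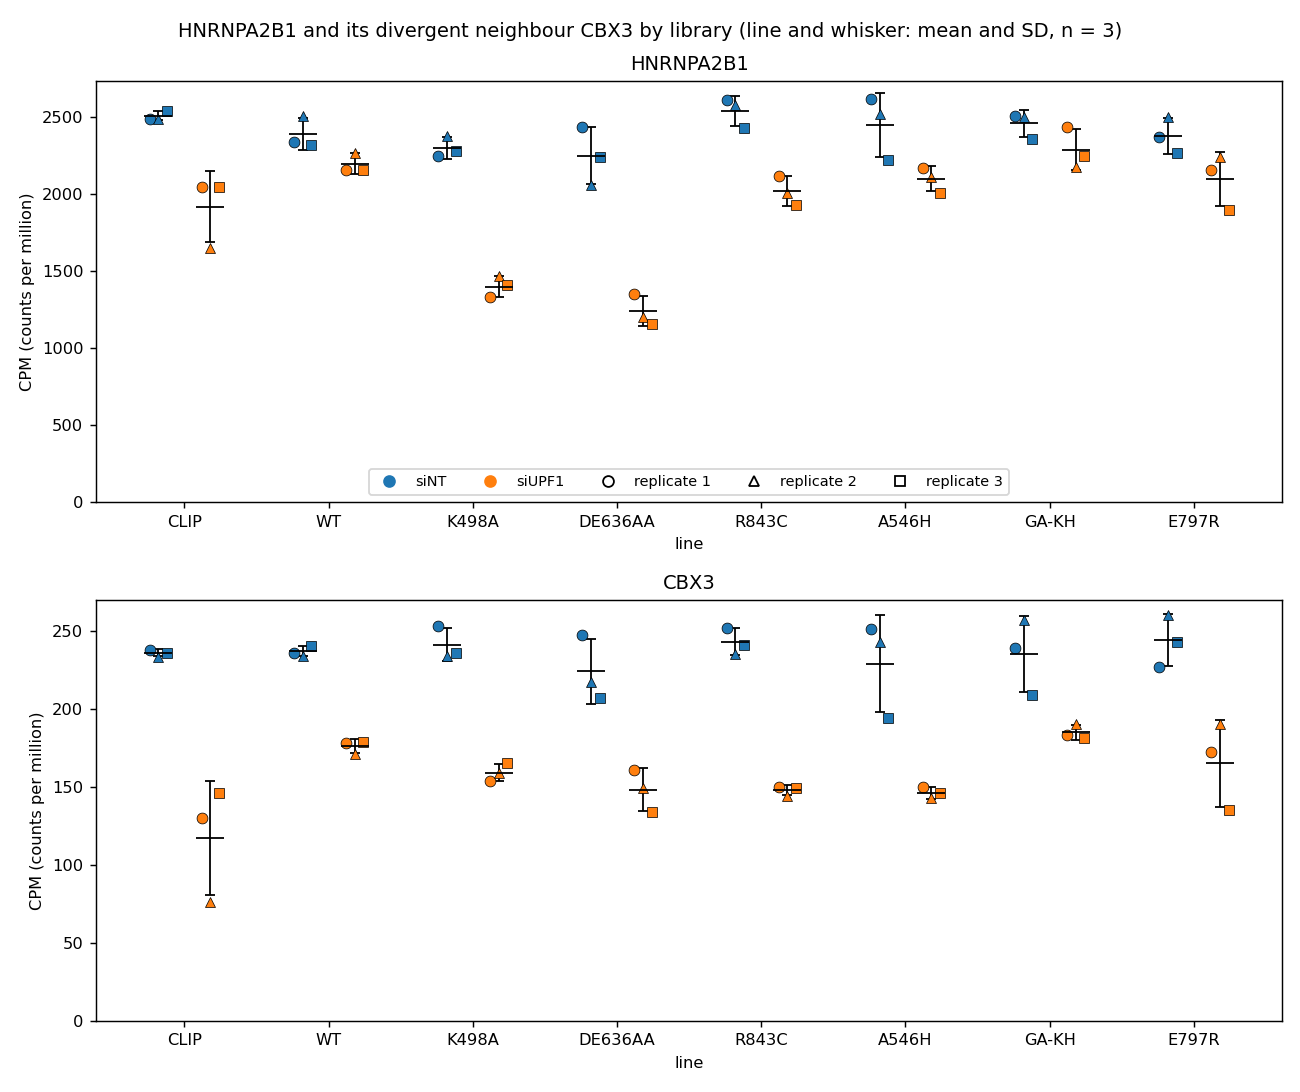
Level of HNRNPA2B1 (upper panel) and CBX3 (lower panel) in each library, in CPM on an axis from 0. Blue points are siNT and orange points siUPF1, shapes give the replicate number, and lines with whiskers give mean and SD (n = 3). For HNRNPA2B1 the orange points of K498A (1330 to 1470 CPM) and DE636AA (1160 to 1350 CPM) are the lowest, whereas for CBX3 the lowest group mean is CLIP siUPF1 (117 CPM).

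HNRNPA2B1 and CBX3, which encodes the heterochromatin protein HP1 gamma, lie head to head on opposite strands and overlap in the GRCh38 annotation. The sources used here do not say whether counting used strand, so the 2 genes may share reads. CBX3 was far lower than HNRNPA2B1, with 238, 233 and 236 CPM in CLIP siNT and 130, 76.2 and 146 CPM in CLIP siUPF1. It fell in all 8 lines, by 1.00 in CLIP (SE 0.13, adjusted p = 2.73e-08), by 0.60 in K498A and in DE636AA, and by 0.35 in GA-KH and 0.43 in WT. Without CLIP siUPF1 replicate 2 the fall in CLIP was 0.78. Unlike HNRNPA2B1, the response of CBX3 in K498A and DE636AA was not called different from that in WT (differences -0.17 in both, SE 0.18, adjusted p = 0.782 and 0.72). NFE2L3, which also overlaps HNRNPA2B1 on the opposite strand in that annotation, was lower still (21 to 44.7 CPM as group means) and rose in all 8 lines, by 0.18 in CLIP and 0.90 in WT, the call in CLIP being lost without siUPF1 replicate 2 (0.16, adjusted p = 0.0955). It was added to the genes examined after the data were seen. The 250 bases before the transcription start of HNRNPA2B1, the side that faces CBX3, are shown since both genes fell (RefSeq, GRCh38.p14, chr7:26200747-26200996, minus strand). They contain no CACGTG, the motif searched below, so no base is capitalised.
HNRNPA2B1: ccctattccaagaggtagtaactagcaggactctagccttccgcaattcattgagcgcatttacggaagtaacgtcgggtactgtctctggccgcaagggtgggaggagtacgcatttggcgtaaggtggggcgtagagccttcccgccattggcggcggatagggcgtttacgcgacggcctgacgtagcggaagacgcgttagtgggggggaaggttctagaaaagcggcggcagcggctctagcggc

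HNRNPA3 fell most in CLIP. Its libraries were at 993, 1010 and 1050 CPM with siNT and at 687, 358 and 734 CPM with siUPF1, replicate 2 being by far the lowest. The fall was 0.78 on the log2 scale (SE 0.12, adjusted p = 1.3e-06), and 0.53 (SE 0.07, adjusted p = 4.94e-08) without that library. In R843C the level went from 1050, 969 and 1000 CPM to 773, 721 and 755 CPM, a fall of 0.43 (SE 0.12, adjusted p = 0.00522). HNRNPA3 also fell in DE636AA (by 0.41), K498A (0.40), A546H (0.39) and WT (0.31). The adjusted p in WT was 0.0498, and leaving out any 1 of the 6 WT libraries took it to between 0.0666 and 0.116. In A546H the call was lost without siNT replicate 1 (adjusted p = 0.0519). In GA-KH and E797R the values were -0.29 and -0.26 (adjusted p = 0.07 and 0.101), and without CLIP siUPF1 replicate 2 both were called (-0.31 and -0.30, adjusted p = 7.06e-05 and 0.000144). In all 8 lines every siUPF1 library lay below every siNT library, a separation whose share over all genes was not counted. Named copies of HNRNPA3 held 1.51 to 3.03% of its count.

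HNRNPA1 showed smaller falls. In CLIP it went from 2540, 2580 and 2720 CPM to 2080, 1820 and 2150 CPM, a fall of 0.37 (SE 0.07, adjusted p = 1.46e-05), or 0.31 without siUPF1 replicate 2. In R843C it went from 2660, 2480 and 2610 CPM to 2140, 2020 and 2030 CPM, a fall of 0.32 (SE 0.07, adjusted p = 0.000195). Its groups did not overlap in any of the 8 lines, a trait not counted over all genes. Falls of 0.17 to 0.23 were called in WT, K498A, DE636AA and A546H. That in WT (adjusted p = 0.0474) was lost without any of its 3 siNT libraries or without siUPF1 replicate 3 (highest adjusted p = 0.216). That in DE636AA was lost without replicate 1 of either siRNA (adjusted p = 0.0616 and 0.0606). In GA-KH and E797R the values were -0.10 and -0.16 and were not called, that in E797R being called without CLIP siUPF1 replicate 2 (-0.19, adjusted p = 0.01). HNRNPA1 has 76 named pseudogene or retrogene copies in the table, whose counts summed to 5.3 to 7.4% of its own, HNRNPA1L2 (62.6 CPM on average) and HNRNPA1P48 (45.8 CPM) being the largest. Reads may be split between them, so its value is uncertain to that extent.

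HNRNPD (ENSG00000138668.14), also called AUF1, binds AU-rich elements in mRNAs and affects their decay. In CLIP it went from 660, 668 and 729 CPM to 487, 310 and 527 CPM, with replicate 2 again the lowest and no overlap between the groups. It fell by 0.64 (SE 0.10, adjusted p = 1.41e-06), and by 0.45 without replicate 2 (SE 0.07, adjusted p = 2.61e-06). Falls were also called in R843C (0.37), A546H (0.32) and DE636AA (0.30), the last 2 being lost without single libraries (A546H siNT replicate 3 or siUPF1 replicate 2, DE636AA siNT replicate 1 or 3 or siUPF1 replicate 2, adjusted p between 0.0507 and 0.0666). In WT, K498A, GA-KH and E797R the values lay between -0.24 and -0.18 with adjusted p from 0.0635 to 0.169. All 4 were called without CLIP siUPF1 replicate 2, between -0.26 and -0.22 (adjusted p from 0.00117 to 0.00567). In each of the 8 lines all 3 siUPF1 libraries were below all 3 siNT libraries, again without a share over all genes to compare.

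HNRNPA3 and HNRNPD followed each other across the 16 group means (Pearson r = 0.98 on log2 CPM, a description over groups that share the siRNA treatment). Their upstream sequences are printed beside those of HNRNPH3, which rose, and HNRNPM, which was not called, because these 4 hold the letters CACGTG within 250 bases before a RefSeq start (GRCh38.p14), and the other 5 genes found in the table do not. HNRNPA1 was not in the table of promoters. CACGTG, an E-box core that reads the same on both strands and is capitalised below, occurred in 7.73% of all genes in that table. The longer form TCACGTGA, which contains it, occurred in HNRNPA3 and HNRNPD and in 1.04% of all genes. The motifs were chosen after the sequences were seen. The windows are chr2:177212544-177212793 (plus strand) for HNRNPA3, chr4:82373992-82374241 (minus strand) for HNRNPD, chr10:68331443-68331692 (plus strand, the first of 3 starts) for HNRNPH3 and chr19:8444725-8444974 (plus strand) for HNRNPM. The motif begins 71, 27, 50 and 42 bases before the start in the same order. Genes that fell, rose and were not called thus hold it, and a match is only a match of letters.
HNRNPA3: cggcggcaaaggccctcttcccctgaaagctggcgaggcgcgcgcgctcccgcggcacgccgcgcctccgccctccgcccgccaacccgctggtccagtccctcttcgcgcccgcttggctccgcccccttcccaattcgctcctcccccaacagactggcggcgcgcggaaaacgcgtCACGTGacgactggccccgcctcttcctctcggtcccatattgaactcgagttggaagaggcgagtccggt
HNRNPD: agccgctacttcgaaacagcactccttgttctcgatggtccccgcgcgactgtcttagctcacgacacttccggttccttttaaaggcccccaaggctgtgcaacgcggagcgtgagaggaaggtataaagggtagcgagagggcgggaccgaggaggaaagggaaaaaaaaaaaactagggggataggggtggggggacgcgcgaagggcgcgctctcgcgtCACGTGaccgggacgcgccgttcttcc
HNRNPH3: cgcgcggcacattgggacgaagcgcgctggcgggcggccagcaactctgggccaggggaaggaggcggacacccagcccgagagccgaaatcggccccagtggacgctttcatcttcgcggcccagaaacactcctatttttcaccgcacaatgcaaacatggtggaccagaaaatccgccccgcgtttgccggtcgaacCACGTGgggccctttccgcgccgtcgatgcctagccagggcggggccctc
HNRNPM: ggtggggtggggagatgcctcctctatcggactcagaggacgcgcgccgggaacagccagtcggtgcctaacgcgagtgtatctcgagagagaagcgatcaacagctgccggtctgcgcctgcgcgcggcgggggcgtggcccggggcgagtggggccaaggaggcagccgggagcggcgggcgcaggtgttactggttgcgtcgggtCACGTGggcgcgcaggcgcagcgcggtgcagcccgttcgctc

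HNRNPH1 (ENSG00000169045.13) and HNRNPH3 (ENSG00000096746.13) encode related proteins that bind runs of G and regulate splicing, HNRNPH3 being the smaller. They went in opposite directions. In CLIP, HNRNPH1 went from 883, 894 and 882 CPM to 743, 559 and 729 CPM, with no overlap. It fell by 0.39 (SE 0.08, adjusted p = 8.09e-05), or by 0.28 without siUPF1 replicate 2 (adjusted p = 0.00116). The other call was in DE636AA, a fall of 0.20 (adjusted p = 0.0407) that was lost when any of 4 libraries was left out (siNT replicate 1 or 3, siUPF1 replicate 2 or 3, highest adjusted p = 0.151). In the remaining 6 lines the values lay between -0.17 and -0.11 and were not called. Those in WT, K498A, A546H and GA-KH were called without CLIP siUPF1 replicate 2 (adjusted p from 0.0157 to 0.0328).

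HNRNPH3 was at 274, 299 and 302 CPM in CLIP siNT and at 572, 294 and 608 CPM in CLIP siUPF1. Replicates 1 and 3 were far above the siNT level, and replicate 2 lay within the siNT range, so the groups overlapped. The rise was 0.75 on the log2 scale (SE 0.12, adjusted p = 2.7e-06), and 1.01 (SE 0.07, adjusted p = 1.64e-15) without replicate 2. In the fit to the 6 CLIP libraries alone it was 0.74 with an adjusted p of 0.0686. In R843C the level went from 329, 311 and 336 CPM to 497, 473 and 512 CPM, a rise of 0.60 (SE 0.12, adjusted p = 0.000143). In A546H it went from 306, 304 and 271 CPM to 479, 441 and 442 CPM, a rise of 0.63 (SE 0.12, adjusted p = 8.52e-05). Both groups of 3 in these 2 lines were fully apart. Smaller rises were called in K498A (0.38, adjusted p = 0.0145) and DE636AA (0.30, adjusted p = 0.0484). The call in K498A was lost without siNT replicate 3 or siUPF1 replicate 2 (adjusted p = 0.063 and 0.0588) and that in DE636AA without any 1 of its 6 libraries (0.0539 to 0.158). In WT the libraries were at 274, 292 and 277 CPM with siNT and at 317, 319 and 297 CPM with siUPF1, a difference of 0.14 (SE 0.12, adjusted p = 0.417). In GA-KH and E797R the values were 0.26 and 0.24 (adjusted p = 0.102 and 0.13), both called without CLIP siUPF1 replicate 2 (0.24 and 0.21, adjusted p = 0.00159 and 0.00485).

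**Figure D3:**
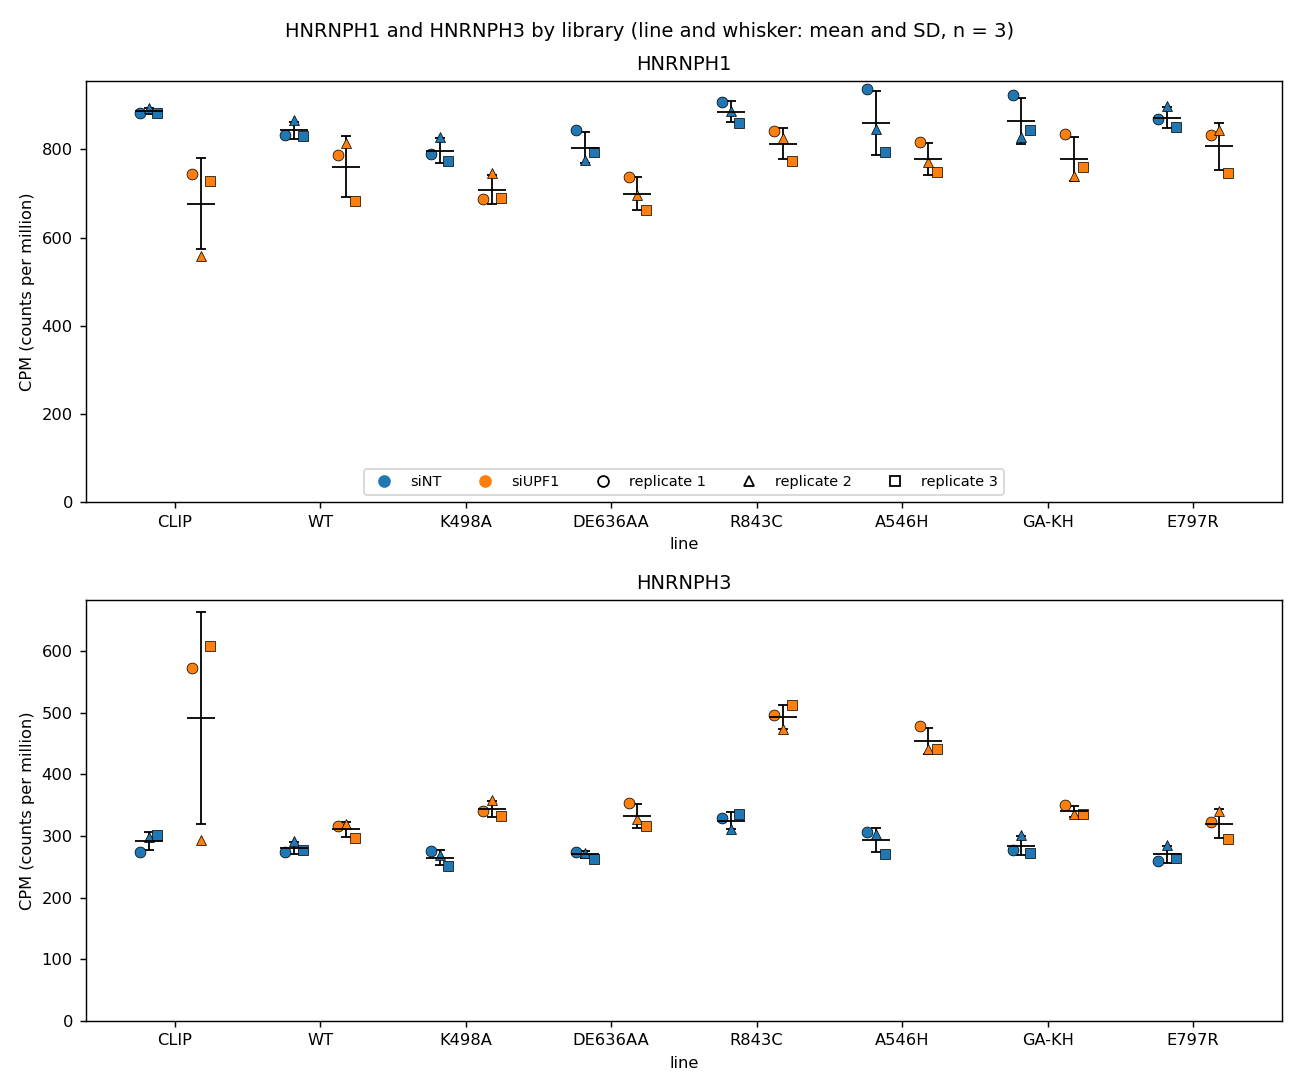
Level of HNRNPH1 (upper panel) and HNRNPH3 (lower panel) in each library, in CPM on axes from 0. Blue points are siNT, orange points siUPF1, shapes give the replicate number, and lines with whiskers give mean and SD (n = 3). For HNRNPH3 the orange points are highest in CLIP, R843C and A546H, except for CLIP replicate 2 (triangle, 294 CPM).

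In the GRCh38 annotation HNRNPH3 overlaps PBLD and RUFY2 on the opposite strand. Both were added after the data were seen, to give the size of the counts that could be shared. PBLD was at 2.82 to 6.58 CPM and RUFY2 at 37.5 to 47.2 CPM as group means. RUFY2 was called in none of the 8 responses, with values from -0.08 to 0.15 (adjusted p from 0.572 to 0.904). PBLD fell in K498A (by 0.67) and DE636AA (by 0.90) and was not called elsewhere.

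HNRNPK (ENSG00000165119.14) binds C-rich RNA and DNA through KH domains. It fell in 3 lines by nearly the same amount. In CLIP it went from 697, 678 and 706 CPM to 589, 332 and 606 CPM, a fall of 0.45 (SE 0.12, adjusted p = 0.00189). Without siUPF1 replicate 2 the fall was smaller, at 0.23 (SE 0.08, adjusted p = 0.0301). In K498A it went from 687, 636 and 564 CPM to 482, 479 and 437 CPM, a fall of 0.43 (SE 0.12, adjusted p = 0.00403). In DE636AA it went from 585 ± 63.9 CPM to 431 ± 18.8 CPM (SD, n = 3), with siUPF1 libraries at 449, 433 and 411 CPM, a fall of 0.44 (SE 0.12, adjusted p = 0.00325). In these 3 lines the groups did not overlap. In WT, GA-KH and E797R the values were -0.03, -0.01 and 0.04 with overlapping libraries. In R843C and A546H they were -0.26 and -0.18 (adjusted p = 0.0919 and 0.262), called without CLIP siUPF1 replicate 2 (-0.28 and -0.20, adjusted p = 0.00308 and 0.0327).

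HNRNPL (ENSG00000104824.12) binds CA repeats and regulates splicing, its own included. Its falls were small and even. In CLIP it went from 374, 361 and 384 CPM to 314, 320 and 332 CPM, a fall of 0.21 (SE 0.06, adjusted p = 0.00227), where replicate 2 lay between the other 2. Falls of 0.16 to 0.22 were called in K498A, DE636AA, R843C, A546H and GA-KH, with groups that did not overlap. It was the 1 hnRNP gene of the 10 called in GA-KH (adjusted p = 0.032), a call lost without siNT replicate 1 or 3 or siUPF1 replicate 2 (highest adjusted p = 0.154). The call in K498A was lost without siNT replicate 3 (adjusted p = 0.0506) and that in A546H without siNT replicate 3 (0.0798). In WT, with 356, 362 and 371 CPM against 329, 342 and 380 CPM, the groups overlapped and the value was -0.05 (95% interval -0.16 to 0.06).

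HNRNPM (ENSG00000099783.7), which binds G- and U-rich RNA and regulates alternative exons, and HNRNPU (ENSG00000153187.12), a large nuclear matrix protein that binds RNA and scaffold-attached DNA, were called in none of the 8 responses. Neither reached an unadjusted p under 0.05 in any line, and DESeq2 called neither. In CLIP, HNRNPM was at 604, 600 and 637 CPM with siNT and at 578, 618 and 612 CPM with siUPF1, a difference of -0.03 (95% interval -0.23 to 0.18). HNRNPU was at 2610, 2650 and 2760 CPM with siNT and at 2150, 2840 and 2240 CPM with siUPF1. Replicate 2 was the highest siUPF1 library here, whereas for most other members it was the lowest. The difference was -0.15 (95% interval -0.30 to 0.00, adjusted p = 0.116), and -0.29 (SE 0.07, adjusted p = 0.00169) without replicate 2. Without that library HNRNPU was also called lower in R843C (-0.16, adjusted p = 0.0487) and A546H (-0.18, adjusted p = 0.0304). HNRNPU overlaps COX20 on the opposite strand in the GRCh38 annotation. COX20, added after the data were seen, was at 11.3 to 26.9 CPM and rose in all 8 lines, by 0.45 in CLIP (0.76 without siUPF1 replicate 2, which at 8.76 CPM lay below the siNT libraries) and by 0.95 to 1.25 in WT, K498A, DE636AA and GA-KH. HNRNPU-AS1 fell in CLIP by 0.88 (from 168, 159 and 161 CPM to 125, 46.8 and 93.1 CPM, adjusted p = 5.21e-05), by 0.59 without replicate 2, and in DE636AA and R843C by 0.48. An overlap of HNRNPU-AS1 with HNRNPU was not listed in the annotation used. Without CLIP siUPF1 replicate 2 HNRNPU-AS1 was also called lower in WT, K498A and E797R (-0.38, -0.43 and -0.45).

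The second question was whether the response of a line differed from that of WT, the line with the wild-type transgene. The 7 differences share the WT libraries. Of 70 pairs of gene and line 3 were called, or 4.29% against 3.12% of such pairs over all genes. The main fit has no term for replicate number. More pairs were called with a replicate block across lines, as given in the last section. HNRNPA2B1 fell further than in WT in K498A, by 0.59 (SE 0.11, adjusted p = 0.00067), where 3.26% of all genes were called. It also fell further in DE636AA, by 0.74 (SE 0.11, adjusted p = 1.97e-05), where 4.5% were called. Both calls held in all 19 alternatives, left-out libraries included, with sizes of -0.63 to -0.55 in K498A and -0.79 to -0.67 in DE636AA. HNRNPH3 rose more than in WT in CLIP, by 0.61 (SE 0.17, adjusted p = 0.0142), where 11.9% of all genes were called. That difference was 0.88 (adjusted p = 1.27e-09) without CLIP siUPF1 replicate 2 and 0.44 (adjusted p = 0.0522) without CLIP siUPF1 replicate 3.

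None of the 10 was called in R843C (1.94% of all genes), A546H (0.298%), GA-KH (0%) or E797R (0%). At an unadjusted p under 0.05 there was 1 of the 10 in R843C and in A546H, HNRNPH3 with differences of 0.46 and 0.48, near the share of all genes at that level (10.2% and 8.34%), and none in GA-KH and E797R, where 315 and 359 of all genes reached that level. In CLIP, with siUPF1 replicate 2 included, 7 of the 10 reached that level (26% of all genes). The counts were 3 in DE636AA (16.3%) and 2 in K498A (13.5%). Without CLIP siUPF1 replicate 2, 7 pairs were called, and the share of all genes called was then 10.2% in CLIP, 5.88% in K498A, 7.92% in DE636AA, 3.01% in R843C and 0.85% in A546H. HNRNPH3 then differed from WT in R843C by 0.46 (SE 0.08, adjusted p = 0.000438) and in A546H by 0.48 (SE 0.08, adjusted p = 0.00132). HNRNPK then differed in K498A by -0.40 (adjusted p = 0.0175) and in DE636AA by -0.39 (adjusted p = 0.0147), where the values with all libraries were -0.40 and -0.41 (adjusted p = 0.232 and 0.184).

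A test of any difference in response among the 8 lines, which called 15.1% of all genes, gave HNRNPA2B1 alone (F = 13.5, adjusted p = 1.02e-06). HNRNPH3 and HNRNPK came next with adjusted p of 0.0538 and 0.0734. All 3 were called without CLIP siUPF1 replicate 2 (adjusted p = 3.83e-08, 3.1e-09 and 0.00267). The share of all genes that this test called in that fit was not counted.

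Because HNRNPA2B1 was lower in K498A and DE636AA than even in the line with the tag alone, those 2 responses were also compared with that of CLIP, a comparison added after the values were seen. HNRNPA2B1 fell further than in CLIP by 0.47 in DE636AA (SE 0.11, adjusted p = 0.00179, 17.9% of all genes called), and by 0.56 without CLIP siUPF1 replicate 2. In K498A the difference was -0.33 (SE 0.11, adjusted p = 0.0373, 13.6% of all genes called). It was -0.43 (adjusted p = 0.00256) without CLIP siUPF1 replicate 2, and it was not called in 10 of 19 alternatives (highest adjusted p = 0.219), among them leaving out any CLIP siNT library, CLIP siUPF1 replicate 3, K498A siNT replicate 2 or 3 or K498A siUPF1 replicate 1. HNRNPD fell less in K498A than in CLIP (difference 0.40, adjusted p = 0.0477), which rested on CLIP siUPF1 replicate 2 (0.20, adjusted p = 0.193 without it). HNRNPH3, at -0.38 and -0.45 in K498A and DE636AA against CLIP with all libraries, was not called there. Without CLIP siUPF1 replicate 2 it rose less than in CLIP in both (differences -0.64 and -0.71, adjusted p = 1.73e-06 and 2.39e-07).

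The third question was whether the lines differed before knockdown. With siNT, levels of 9 of the 10 genes were not called different from those of CLIP in any line. The share of all genes called was small, with 1.34% in DE636AA and 0.125% in A546H as the highest, then 0.0889% (R843C), 0.0627% (GA-KH), 0.0366% (K498A), 0.0314% (WT) and 0.0261% (E797R). HNRNPM was the exception. It was at 604, 600 and 637 CPM in CLIP siNT and at 517, 368 and 433 CPM in DE636AA siNT, lower by 0.48 on the log2 scale (SE 0.10, adjusted p = 0.0205). All 3 DE636AA libraries lay below all 3 CLIP libraries, but they spread widely. The call was lost without any 1 CLIP siNT library or without DE636AA siNT replicate 2 or 3, at sizes of -0.50 to -0.37 (adjusted p from 0.0625 to 0.227). In K498A, with 425, 482 and 485 CPM, the difference from CLIP was -0.40 (adjusted p = 0.142), and in WT, with 507, 529 and 528 CPM, it was -0.24 (adjusted p = 1). GA-KH (618, 474 and 589 CPM), R843C, A546H and E797R lay nearer CLIP. At an unadjusted p under 0.05 in the same test, 7 of the 10 genes differed from CLIP in DE636AA (17.6% of all genes). The counts were 3 in K498A (11.5%), 1 in WT (3.55%) and 0 in R843C, A546H, GA-KH and E797R. All 10 values lay below 0 in WT, K498A, DE636AA, GA-KH and E797R, comparisons that share the CLIP siNT libraries.

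**Figure D4:**
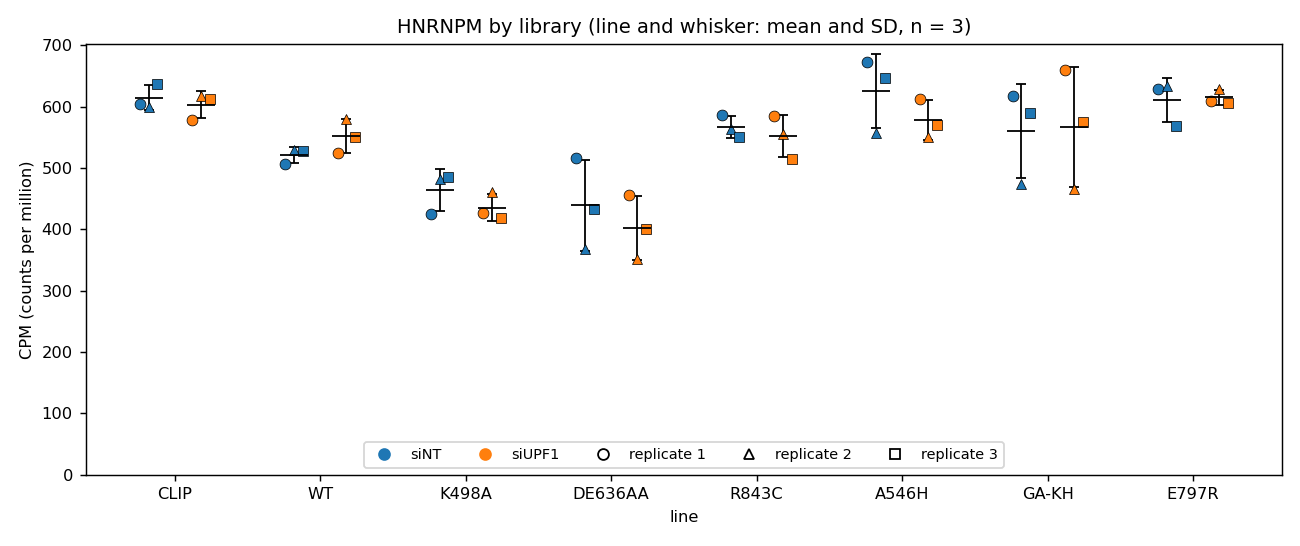
Level of HNRNPM in each library, in CPM on an axis from 0. Blue points are siNT, orange points siUPF1, shapes give the replicate number, and lines with whiskers give mean and SD (n = 3). Within a line blue and orange points overlap, while both siRNA groups of K498A and DE636AA have the lowest means, from 402 to 464 CPM.

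A test of any difference in siNT level among the 8 lines, which called 4.18% of all genes, gave HNRNPM alone (F = 6.53, adjusted p = 0.00439). Without CLIP siUPF1 replicate 2, which enters this test only through the shared spread, HNRNPA3, HNRNPD and HNRNPH3 were called as well (adjusted p = 0.0249, 0.0089 and 0.0078), and 6 pairs of gene and line differed from CLIP. Those were HNRNPA3, HNRNPD, HNRNPK, HNRNPM and HNRNPU in DE636AA and HNRNPD in K498A, each lower by 0.25 to 0.49. In that fit 5.2% of all genes were called in DE636AA and 0.237% in K498A. The share that the test among the 8 lines called in that fit was not counted.

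The other genes of the family, 20 hnRNP genes and proteins classed with them, moved in both directions. In CLIP 5 rose and 7 fell (25.1% and 22.3% of all tested genes), with a median of -0.15. Without siUPF1 replicate 2 the counts were also 5 and 7, but HNRNPH2 and RBMX were then no longer called, and SYNCRIP and HNRNPUL1 were. In WT 4 rose and 4 fell (14% and 13.3% of all genes) with a median of 0.03. In K498A 1 rose and 8 fell (16.2% and 16.5%), and in DE636AA 1 rose and 9 fell (16.7% and 17.6%). In R843C 3 rose and 6 fell (17.7% and 14.8%), and in A546H 4 rose and 5 fell (17.2% and 15%). In GA-KH 4 rose and 3 fell (14.5% and 13.8%), and in E797R 6 rose and none fell (16% and 13.5%). The largest called changes in CLIP were HNRNPAB, an A/B-type protein (0.56, or 0.32 without siUPF1 replicate 2), HNRNPDL, the nearest relative of HNRNPD (-0.56, or -0.34), TARDBP, which encodes the RNA-binding protein TDP-43 (-0.53, or -0.36), CIRBP, a cold-induced RNA-binding protein (0.47, or 0.33), and HNRNPUL2, a relative of HNRNPU (0.46, or 0.45). In WT they were HNRNPAB (0.49), HNRNPUL2 (0.45) and HNRNPH2 (0.37), all higher. HNRNPH2, a close relative of HNRNPH1, was called higher in all 8 lines, by 0.26 in CLIP and 0.37 in WT. Its adjusted p in CLIP was 0.0532 without CLIP siUPF1 replicate 2. HNRNPDL was called lower in 5 lines, CLIP, WT, K498A, DE636AA and R843C, and without CLIP siUPF1 replicate 2 in all 8 (A546H -0.26, GA-KH -0.24, E797R -0.31). Against WT, HNRNPAB differed in K498A by -0.66 (adjusted p = 0.00898) and in DE636AA by -0.74 (adjusted p = 0.00231). PTBP1, a repressor of exon inclusion that binds pyrimidine-rich RNA, differed there by -0.39 and -0.40 (adjusted p = 0.00568 and 0.00326), these genes having been chosen for naming after their values were seen.

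**Figure D5:**
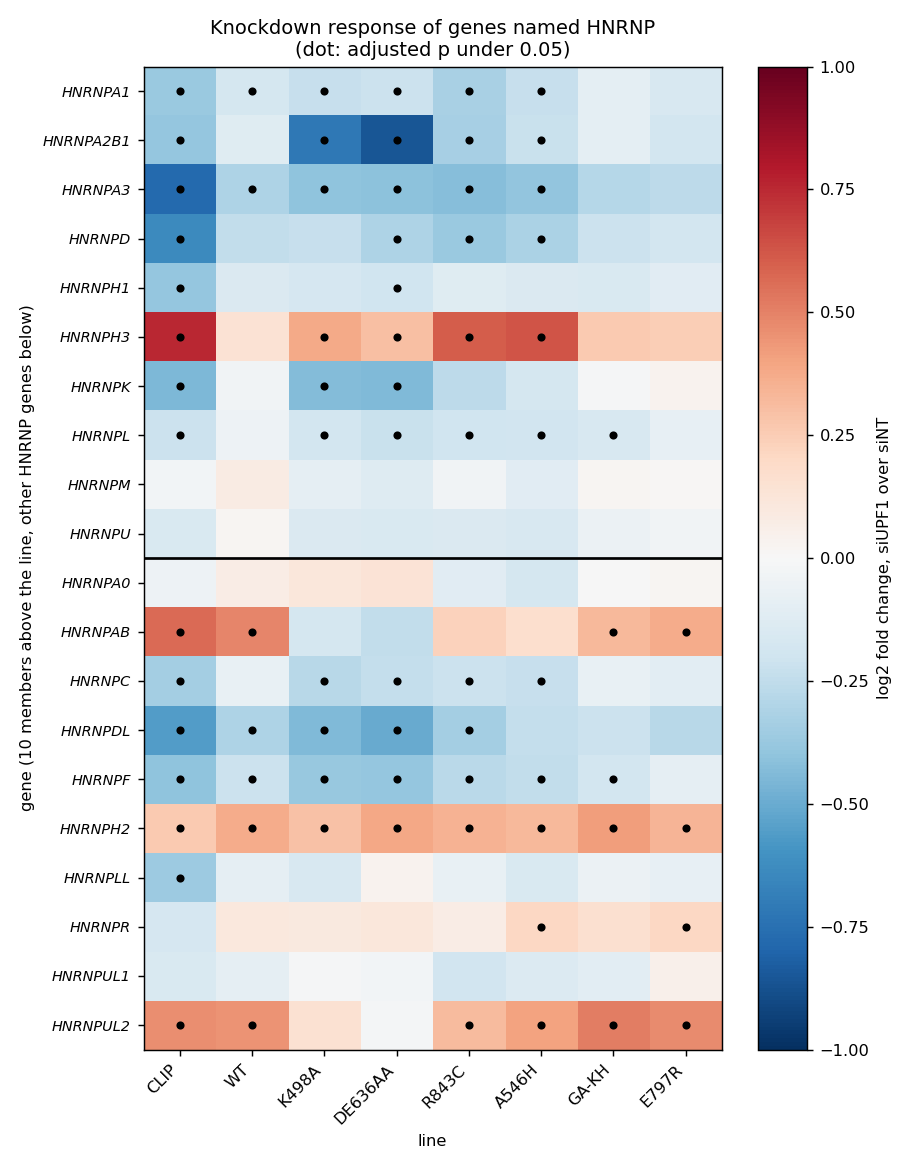
Knockdown response of the genes whose symbol starts with HNRNP (rows, the 10 described here above the line) in the 8 lines (columns), coloured by the log2 fold change of siUPF1 over siNT, with a dot where the adjusted p was under 0.05. HNRNPH3 and HNRNPH2 are red in all columns, HNRNPC, HNRNPDL and HNRNPF are blue in all, and HNRNPAB is red in CLIP, WT, GA-KH and E797R and pale blue in K498A and DE636AA.

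Known NMD targets and factors were taken from lists for comparison. Of 9 NMD factor genes, whose own transcripts are partly NMD targets, 8 rose in CLIP (SMG1 most, by 1.52, SMG8 being the exception), 7 in R843C, 6 in A546H, 4 in K498A and in DE636AA, 2 in GA-KH and 1 in WT and in E797R. Others of the 9 fell, 4 in E797R, 3 in GA-KH, 2 in WT and 1 in A546H. All 16 NMD targets rose in CLIP (median log2 fold change 1.00), 11 in DE636AA, 9 in K498A, 12 in R843C, 6 in A546H, 1 in WT and 2 each in E797R and GA-KH. In WT, GA-KH and E797R 1 target each fell. Of all tested genes, 25.1% rose in CLIP and between 14% (WT) and 17.7% (R843C) in the other lines. HNRNPA2B1 fell most in K498A and DE636AA, whereas fewer NMD targets rose than in CLIP in every other line. A link between the NMD targets and HNRNPA2B1 was not tested.

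Across the 16 group means of log2 CPM, the genes most like HNRNPA3 were CDC27 (Pearson r = 0.988), STT3B (0.986) and PPIL4 (0.983). Most like HNRNPA1 were GABARAPL2 (0.974), UBA2 (0.972) and NME1-NME2 (0.971), and most like HNRNPL were CAPN2 (0.97), HEATR3 (0.964) and ACLY (0.963). Among the 10 members, HNRNPD and HNRNPH1 also followed each other (r = 0.96), HNRNPH3 ran opposite to HNRNPA1 (r = -0.75), and HNRNPM followed HNRNPU (r = 0.87) more than HNRNPA1 (r = 0.27). These coefficients describe 16 points that share 8 lines and 2 siRNAs.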

How the data were processed

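RNA of 48 libraries was depleted of ribosomal RNA and sequenced in pairs. The deposited values are RSEM expected counts per gene. The tools cutadapt, STAR, RSEM and DESeq2 and the build hg19 are named in the submitters' processing notes, with versions, annotation and strand setting not given in the sources used here. These estimated counts were rounded, then fitted with edgeR 4.0.16 (R 4.3.3, limma 3.58.1; TMM factors, filterByExpr, quasi-likelihood test), with 1 term for each of 16 groups. Adjusted p-values are Benjamini-Hochberg over the 19129 genes tested in a comparison, called under 0.05. CPM (counts per 1 M) used the TMM library sizes. The test was checked on simulated data with 1 spread for all genes and no deviating library. That check therefore does not cover a library such as CLIP siUPF1 replicate 2. Alternatives were other scaling factors, no filter, a replicate block, each line alone, DESeq2 1.42.0, a stricter threshold and leaving out each library. Library totals of 21.3 to 47.1 M limit precision less than the spread between the 3 libraries of a group. The 10 genes and the lists were chosen with earlier results of these data known. All 10 are named throughout. Of the other hnRNP genes, the 5 most changed in CLIP and the 3 in WT are named, and for 3 members the 3 genes most alike. Promoter letters are from RefSeq (GRCh38.p14) and transcript types from GENCODE on GRCh38, not the build of the files, and 9 of the 10 genes matched a promoter.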

Additional observations from a re-analysis of the deposited data

Results flagged for a closer look

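The response to UPF1 knockdown differed between lines, by a test of the difference itself in edgeR's quasi-likelihood fit, in 6 cases. HNRNPH3 rose more in CLIP than in WT (difference 0.61, adjusted p = 0.0142). HNRNPA2B1 fell further than in WT in K498A (-0.59, adjusted p = 0.00067) and in DE636AA (-0.74, adjusted p = 1.97e-05). It also fell further than in CLIP in K498A (-0.33, adjusted p = 0.0373) and in DE636AA (-0.47, adjusted p = 0.00179). HNRNPD fell less in K498A than in CLIP (0.4, adjusted p = 0.0477), and without CLIP siUPF1 replicate 2 that difference was 0.20 (adjusted p = 0.193). The comparisons with CLIP were added after the values were seen.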

How the results depend on the processing

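Of 44 called results for single genes, 18 stayed called in every alternative counted for them, and none changed sign. For a response these were 14 fits, in which left-out libraries came only from that line. The stricter threshold was not counted here. Counts of called genes among the 10 are listed where they moved by more than a set ratio, or to or from 0. Shares of all genes called were counted only without CLIP siUPF1 replicate 2, and there not for the tests among lines. A moved count can therefore not be read as particular to the 10 genes. Smaller moves are left out, such as 3 in WT and 7 in K498A with DESeq2, against 2 and 6. With RLE factors they were 2 in GA-KH, 2 in E797R and 2 in the test among lines. With upper-quartile factors they were 4 in WT, 5 in GA-KH, 4 in E797R, 7 for differences from WT, 6 for differences from CLIP and 3 among lines. With library totals alone they were 2 in GA-KH and 2 in E797R. With no filter on low counts they were 1 in WT, 5 in DE636AA, 3 in A546H, 1 in E797R, 5 for differences from WT, 2 for siNT levels against CLIP and 3 among lines. With only a line's own 6 libraries they were 3 in CLIP, 5 in DE636AA, 4 in GA-KH and 3 in E797R. DESeq2 called 2 in GA-KH, 2 in E797R, 5 differences from WT and 2 siNT levels. At an adjusted p under 0.01 they were 0 in WT, 4 in DE636AA, 3 in A546H, 0 in GA-KH, 0 siNT levels and 1 difference from CLIP. The replicate numbers paired the libraries of a line only weakly (correlations of deviations over 0.1 in 9 of 24 pairs, median 0.085). On the main axis of variation between libraries, replicate 3 nevertheless lay lowest in every group (R843C siUPF1 21.91, against 27.97 and 25.06). A shift of replicate 3 shared across lines is therefore present on this axis, and the main fit has no term for it. With a replicate block across lines the counts were 2 in E797R, 6 differences from WT, 3 siNT levels and 3 among lines, and with a block within each line 3 in GA-KH, 1 in E797R, 7 differences from WT and 6 from CLIP. Leaving out 1 of the libraries a comparison uses (and CLIP siUPF1 replicate 2 for comparisons across lines, the responses of other lines without it being given above) gave 0 to 1 in WT, 4 to 7 in DE636AA, 0 to 2 in GA-KH, 0 to 1 in E797R, 3 to 7 differences from WT, 0 to 6 siNT levels, 1 to 6 differences from CLIP, and 1 to 4 in each test among lines. The highest counts came without CLIP siUPF1 replicate 2 for differences from WT, siNT levels and the test of siNT levels, without CLIP siUPF1 replicate 1 for differences from CLIP (6), and without CLIP siUPF1 replicate 3 for the test of responses (4). The lowest in DE636AA came without its siNT replicate 1 (4). Values near 0 that were never called changed sign. HNRNPU in WT was -0.033 with upper-quartile factors. HNRNPM in GA-KH was -0.046 (upper-quartile), -0.008 (totals), -0.009 (no filter) and -0.013 (own libraries). HNRNPM in E797R was -0.003 (RLE and DESeq2), -0.043 (upper-quartile), -0.034 (totals), -0.031 (no filter) and -0.009 (own libraries). HNRNPK in E797R was -0.016 (upper-quartile), -0.006 (totals) and -0.005 (no filter). Leaving out 1 library, HNRNPM ranged from -0.054 to 0.007 in CLIP, -0.239 to 0.006 in DE636AA, -0.131 to 0.114 in GA-KH and -0.037 to 0.033 in E797R, HNRNPK from -0.111 to 0.037 in WT, -0.093 to 0.044 in GA-KH and -0.017 to 0.063 in E797R, and HNRNPU from -0.051 to 0.047 in WT. The cause was not tested.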
